A study of Mus musculus with 11 samples.

Results

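The 10 genes described here mark the oligodendrocyte lineage from precursor to newly formed oligodendrocyte and were followed across 4 mouse genotypes. They are Pdgfra, Cspg4, Olig1, Olig2, Sox10, Gpr17, Bmp4, Enpp6, Bcas1 and Myrf. The choice was made by role and not by a rule on measured values, though with earlier results of these data known. They make up 10 of the 22609 genes in the deposited count table. Each of the 10 was found there, Myrf under its older symbol Gm98, and each passed the filter on low counts. The RNA-seq libraries, 11 in number, were made from polyadenylated RNA of whole tissue, which the labels give as cerebellar hemisphere. The control mice carried the floxed alleles NfascFx/Fx and AnkGFx/Fx, by the design text without Cre, though the study also writes controls with Pcp2-Cre (n = 3). The NFKO mice were Pcp2-Cre;NfascFx/Fx (n = 3), the AnkGKO mice Pcp2-Cre;AnkGFx/Fx (n = 2), and the DKO mice Pcp2-Cre;NfascFx/Fx;AnkGFx/Fx (n = 3). All mice were untreated, of mixed sex and placed in batch 1, and postnatal day 30 stands in 1 field of the labels and day 32 in another. The background is given as C57BL/6J in the descriptions and as a mix of C57BL/6J and 129 in the protocol. The Pcp2 promoter drives Cre mainly in Purkinje cells, so by design oligodendrocytes were not the cells targeted. Whether other cells also lost the floxed genes was not tested. The titles call the libraries of a genotype biological replicates and do not say how the mice were related beyond littermates, so the p-values measure the spread between these libraries.

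Oligodendrocyte precursors are dividing glia that carry the PDGF receptor alpha and the NG2 proteoglycan on their surface. On differentiation they lose both, pass through a short committed stage marked by the receptor GPR17, and switch on Myrf and the genes of the myelin sheath. Olig1, Olig2 and Sox10 are expressed through most of the lineage. Several of these genes are also used outside it, Pdgfra in meningeal fibroblasts, Cspg4 in pericytes, Sox10 in Schwann cells and Bmp4 in meninges and other tissues, so the markers of those cells are given further on. In bulk tissue, fewer cells of a type and less RNA per cell cannot be told apart.

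Reads counted on genes totalled 38890851 to 55822361 per library, and levels are given as CPM (counts scaled to a common library size) after edgeR's TMM scaling. Ank3, which encodes AnkG, was at 353 to 375 CPM in control, 385 to 407 in NFKO, 156 to 200.1 in AnkGKO and 160 to 185 in DKO. Nfasc was at 661 to 718 CPM in control, 622 to 701 in NFKO, 717 and 953 in AnkGKO and 559 to 606 in DKO, so that the NFKO libraries overlapped the controls and the DKO libraries lay below them. Pcp2, a gene of Purkinje cells, reached 26.3 and 28.3 CPM in control 1 and NFKO 1 and stayed at or under 2.14 CPM in the other 9 libraries. In the AnkGKO and DKO libraries, where Ank3 was lower, Pcp2 was at 0.103 to 0.374 CPM. Which cells lost Ank3 there was not tested. Hox genes of the caudal nervous system, which the cerebellum is not known to express, summed to 389 to 608 CPM in every library. On the Hox genes the tissue of all 11 libraries went against its label, control 1 and NFKO 1 included. On Pcp2 the tissue of the other 9 libraries did so too. Xist, the RNA of the inactive X chromosome, was at 459 to 598 CPM in controls 1 and 2 and DKO 2 and 3, at 28.4 CPM in DKO 1, and at or under 1.39 CPM in control 3 and every single-knockout library. DKO 1 stood apart among the libraries, with 16.8% of the 17557 tested genes at their lowest of all 11 libraries, against 4.77% to 13.4% elsewhere.

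Levels per transcript length spread over a wide range. Bcas1, which encodes a protein of newly formed and early myelinating oligodendrocytes, was highest at 194 ± 26.2 CPM per kb of its canonical transcript (SD, n = 11). The basic helix-loop-helix factor Olig1 followed at 142 ± 17.2 CPM per kb (SD, n = 11), and its lowest value to highest value, 104 to 164, did not reach the 168 to 248 of Bcas1. Sox10, an HMG-box factor, and Myrf, a membrane-bound factor needed for myelin gene expression, came next at 60.5 ± 5.79 and 57.9 ± 4.24 CPM per kb and overlapped each other. Olig2, the partner of Olig1, was at 28.2 ± 3.23 CPM per kb and overlapped Gpr17, a G protein-coupled receptor of committed precursors, at 18.2 ± 4.26. The PDGF receptor gene Pdgfra, with a mean of 11.6 CPM per kb and a range of 10.2 to 12.9, did not differ beyond its spread from Enpp6, a choline phosphodiesterase of newly formed oligodendrocytes, with a mean of 11.3 and a range of 8.57 to 13.9. Cspg4, the NG2 gene, was at 4.01 ± 0.417 CPM per kb and Bmp4, a secreted signal, at 1.75 ± 0.613 (SD, n = 11 for each). With the length of all annotated exons in place of the canonical transcript, Olig2 and Gpr17 exchanged places, and so did Pdgfra and Enpp6.

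**Figure D1:**
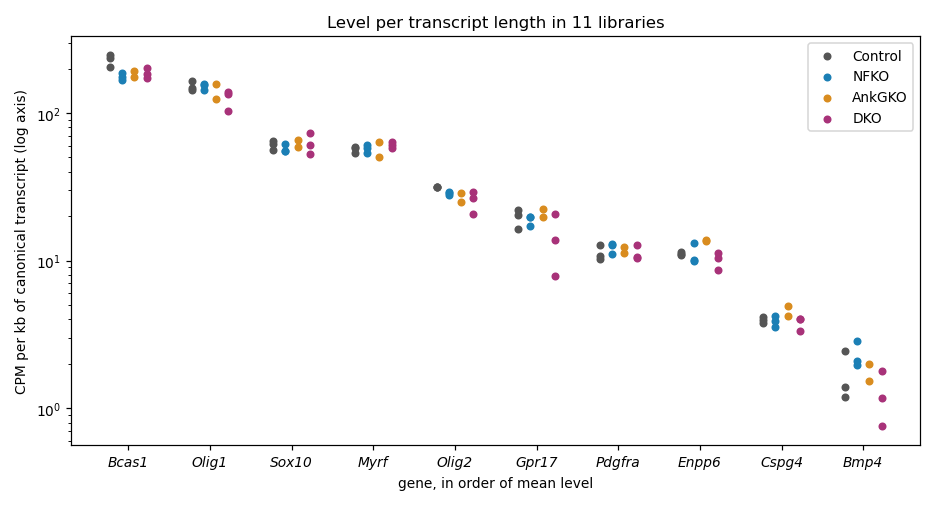
CPM per kb of canonical transcript (log axis) for the 10 genes in order of mean level, each point 1 library colored by genotype. Bcas1 and Olig1 lie above the other 8 genes in every library, and Cspg4 and Bmp4 lie below them.

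On GRCm39 with GENCODE annotation, the genes lie on 9 chromosomes, and only Olig2 and Olig1 are neighbors, 41.1 kb apart on chromosome 16. Olig2 spans chr16:91019435-91025567 and Olig1 chr16:91066660-91068821, both on the plus strand. Bcas1 spans chr2:170188911-170269765 on the minus strand and Enpp6 chr8:47439919-47549797 on the plus strand. Gpr17 overlaps Lims2 on the other strand, and the long noncoding gene Gm15217 overlaps Bmp4 on the other strand. Both partners are in the count table, the kit was strand-specific, and whether the counting used strand is not given in the sources used here, so reads of Gpr17 and Lims2 may not have been told apart.

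Of the 10 genes, 5 had an entry in the RefSeq promoter table. The 250 bases before the start are shown for Olig2 and Enpp6, whose levels are described among the comparisons, read from that table and placed by exact match on GRCm39 (plus strand, chr16:91022188-91022437 and chr8:47439672-47439921). The Olig2 start of RefSeq lies inside the longer GENCODE gene. Capitals mark the 5-base core ACAAT that SOX factors bind, searched on both strands.
Olig2: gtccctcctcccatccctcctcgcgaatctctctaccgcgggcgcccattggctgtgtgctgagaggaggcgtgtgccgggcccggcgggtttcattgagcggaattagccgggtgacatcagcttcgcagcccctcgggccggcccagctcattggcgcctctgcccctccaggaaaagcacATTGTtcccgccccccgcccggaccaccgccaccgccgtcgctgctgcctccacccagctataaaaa
Enpp6: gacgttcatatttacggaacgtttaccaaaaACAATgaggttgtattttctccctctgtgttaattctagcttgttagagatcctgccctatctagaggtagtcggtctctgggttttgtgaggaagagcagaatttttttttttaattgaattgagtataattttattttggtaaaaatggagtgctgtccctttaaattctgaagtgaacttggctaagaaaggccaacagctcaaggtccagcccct
The Olig2 window was 66.8% G and C and the Enpp6 window 38.4%. Each held 1 match to ACAAT, which 27.7% of 32851 mouse promoter windows of this length hold. Neither held the E-box CANNTG bound by OLIG factors, which 66.2% of the windows hold.

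The genotypes were compared with edgeR's quasi-likelihood test in 1 model over all 11 libraries, with Benjamini-Hochberg adjustment over the 17557 genes with at least 10 counts in all. A call needed an adjusted p under 0.05 together with a log2 fold change of 0.6 or more in size. The interaction was the difference of DKO from NFKO minus the difference of AnkGKO from control. None of the 10 lineage genes was called against control, 0 of 10 in NFKO (0.365% of all tested genes were called there), 0 of 10 in AnkGKO (0.165%) and 0 of 10 in DKO (0.0228%). None was called between DKO and NFKO (0.615% of all genes), between DKO and AnkGKO (0.171%), in the interaction of the knockouts (0.53%) or in the edgeR test for any difference among the 4 genotypes (0.723%). Before adjustment, 1, 2 and 3 of the 10 had an edgeR p under 0.05 in NFKO, AnkGKO and DKO against control, against 7.69%, 5.39% and 7.77% of all genes. The count was 2 of 10 for DKO against NFKO (16.2% of all genes), DKO against AnkGKO (8.48%), the interaction (10.3%) and the test of any difference (11.3%). DESeq2 with a local dispersion fit called 0 of the 10 in each pairwise comparison and the interaction. For any difference it called 2 of the 10, Bcas1 and Enpp6, and 1137 of all 17557 genes. A parametric fit called 1 of the 10 there, Bcas1, and 698 of all 17557 genes.

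**Figure D2:**
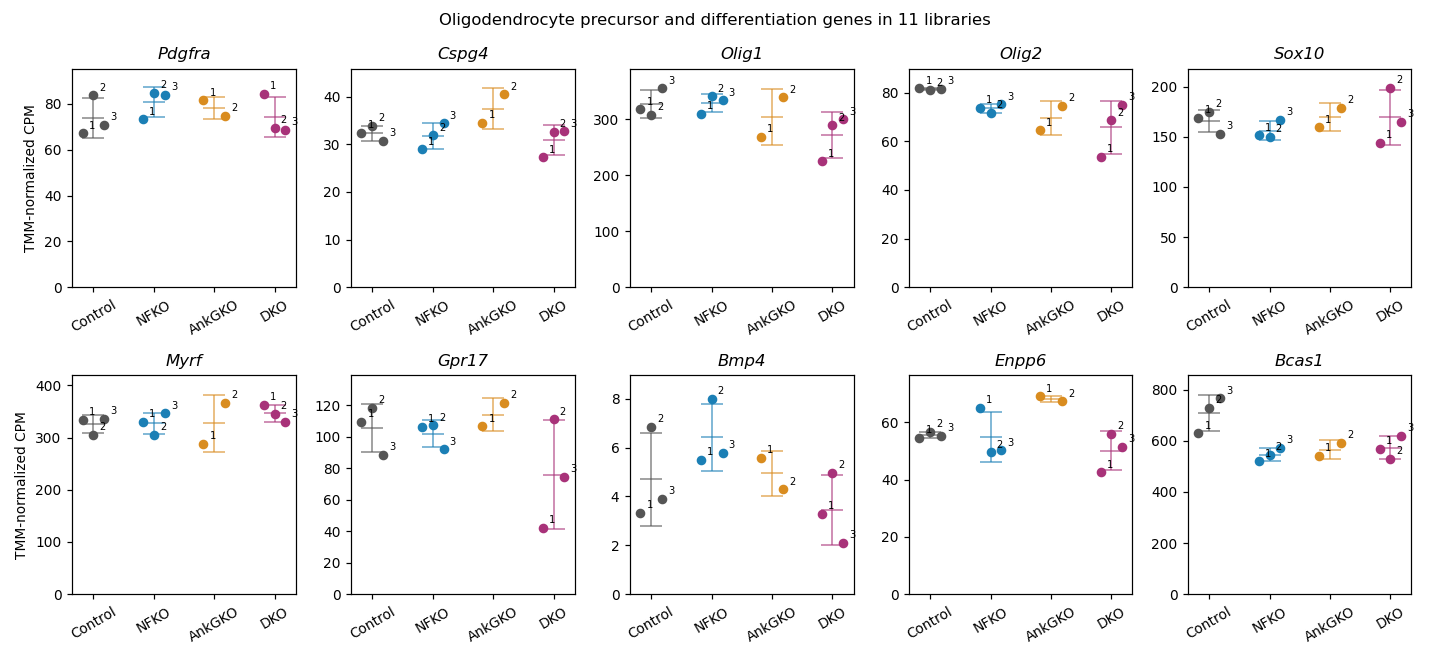
TMM-normalized CPM of the 10 genes by genotype, each point 1 library with its replicate number, the middle tick and the bar with end ticks the mean and SD of a genotype. All 8 mutant libraries lie below the 3 controls for Bcas1 and Olig2, and DKO 1 is the lowest library for 6 genes.

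**Figure D3:**
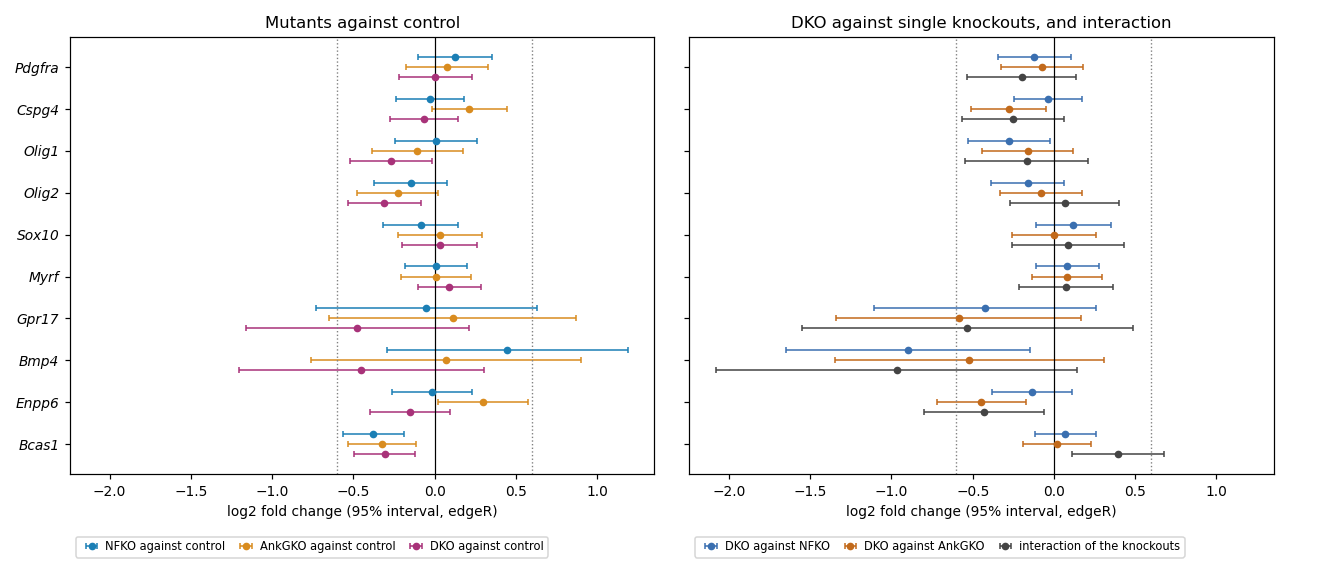
Log2 fold change with its 95% interval from edgeR for the 10 genes, left for each mutant against control and right for DKO against NFKO, DKO against AnkGKO and the interaction. Dotted lines mark 0.6 in both directions, and the intervals of Gpr17 and Bmp4 are the widest.

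Among the genes of committed precursors and newly formed oligodendrocytes, Bcas1 was lower in every mutant library than in every control library. Bcas1 was at 629, 730.1 and 765 CPM in controls 1, 2 and 3, at 519, 545 and 573 in NFKO, at 540.4 and 591 in AnkGKO and at 569.6, 529 and 619.6 in DKO. The highest mutant library, DKO 3, lay just below the lowest control, control 1. Of all tested genes, 0.496% had the 8 mutant libraries below the 3 controls in this way and 0.632% had them above, and the 3 mutants share these controls.

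The log2 fold change of Bcas1 was -0.38 in NFKO (standard error 0.086, adjusted p = 0.111 from edgeR), -0.32 in AnkGKO (standard error 0.097, adjusted p = 0.467) and -0.31 in DKO (standard error 0.086, adjusted p = 0.562). Each missed both thresholds of a call. With DESeq2 and a local fit the adjusted p for NFKO was 0.00188, with a fold change still under 0.6, and over all alternatives it ran from 0.00188 to 0.951, the last with Schwann cell genes as a covariate. DKO did not differ from NFKO by more than its error, at 0.07 with a 95% interval of -0.12 to 0.26, nor from AnkGKO, at 0.02 with an interval of -0.19 to 0.23. The interaction was 0.39 with an interval of 0.11 to 0.68 (adjusted p = 0.297 from edgeR), so that the sum of the single-knockout differences was larger in size than the DKO difference. Among libraries with low Xist, Bcas1 was at 765 CPM in control 3 and at 519 to 591 in the 5 single-knockout libraries, and among those with high Xist at 629 and 730.1 in controls 1 and 2 and at 529 and 619.6 in DKO 2 and 3.

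Enpp6 was highest in AnkGKO. Its level was 54.6, 56.8 and 55.4 CPM in controls 1, 2 and 3, 65.2, 49.6 and 50.3 in NFKO, 69.1 and 67.5 in AnkGKO and 42.6, 56.1 and 51.5 in DKO. Both AnkGKO libraries lay above all control and all DKO libraries, and above all NFKO libraries too, while DKO overlapped control and NFKO.

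For Enpp6, AnkGKO exceeded control by 0.30 on the log2 scale (standard error 0.13, edgeR adjusted p = 0.864), and DKO stood at -0.45 relative to AnkGKO (standard error 0.13, adjusted p = 0.379). The latter had an adjusted p of 0.0283 with DESeq2 and a local fit and ran up to 0.779 over the alternatives. Against control, NFKO was at -0.02 (95% interval -0.26 to 0.23) and DKO at -0.15 (interval -0.40 to 0.10). The interaction was -0.43 (standard error 0.17, adjusted p = 0.408 from edgeR). Without DKO 1, the lowest library, the difference between DKO and AnkGKO was -0.34.

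Gpr17 varied most in DKO. It was at 109.5, 118 and 88.6 CPM in control, at 106, 107 and 92.0 in NFKO, at 106 and 121 in AnkGKO and at 42.2, 110.9 and 74.7 in DKO 1, 2 and 3. DKO 1 was the lowest of all libraries and DKO 2 within the range of the controls, so that the groups overlapped in each comparison.

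In DKO against control, Gpr17 stood at -0.48 on the log2 scale (standard error 0.30, edgeR adjusted p = 0.694), and it moved to -0.19 without DKO 1 and to -0.85 without DKO 2. The 95% interval with all libraries, -1.16 to 0.21, did not exclude a change past the threshold. In NFKO and AnkGKO the log2 fold changes were -0.05 and 0.11. Lims2, which overlaps it on the other strand and is itself a gene of committed precursors, was also lowest in DKO 1, at 14.5 CPM against 22.4 to 30.5 in the other libraries. The part of those reads in the Gpr17 value was not tested.

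Bmp4, the secreted signal that holds precursors back from differentiation, was the least abundant of the 10, with 116 to 415 reads per library. It was at 3.33, 6.87 and 3.90 CPM in control, at 5.49, 7.99 and 5.80 in NFKO, at 5.59 and 4.30 in AnkGKO and at 3.29, 4.97 and 2.11 in DKO. The DKO libraries all lay below the NFKO libraries, and both groups overlapped control. Its log2 fold change in DKO against NFKO was -0.90 (standard error 0.34, adjusted p = 0.231 from edgeR), past 0.6 but not past the threshold on p.

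The Bmp4 difference between DKO and NFKO changed when sums of other cells' genes were entered as covariates. The summed CPM of 10 meningeal fibroblast genes was 608 to 1720 in NFKO and 144 to 459.7 in DKO, and with that sum as a covariate the Bmp4 difference was 0.01 (adjusted p = 0.996 from edgeR). With Schwann cell genes as a covariate it was -0.33. Neither sum overlapped between NFKO and DKO, so these sums and genotype cannot be told apart here, and the cause was not tested. NFKO 2 held the highest value of Bmp4 and of the meningeal sum.

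Among the transcription factors, Olig2 was, as Bcas1 was, lower in every mutant library than in every control, with the lowest group mean in DKO where that of Bcas1 was in NFKO. Olig2 was at 81.7, 81.0 and 81.5 CPM in controls 1, 2 and 3, at 73.8, 71.6 and 75.2 in NFKO, at 64.5 and 74.5 in AnkGKO and at 53.6, 68.6 and 74.9 in DKO. The 3 controls differed among themselves by less than 1 CPM, and the 3 mutant groups overlapped each other.

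Olig2 differed from control by a log2 value of -0.15 in NFKO (edgeR, standard error 0.10, adjusted p = 0.878), -0.23 in AnkGKO (standard error 0.12, adjusted p = 0.948) and -0.31 in DKO (standard error 0.10, adjusted p = 0.588). None passed the threshold. The DKO value was -0.18 without DKO 1, and the AnkGKO value was -0.13 without AnkGKO 1 and -0.33 without AnkGKO 2. With Schwann cell genes as a covariate the NFKO value was 0.02, and with meningeal fibroblast genes it was -0.04. Both sums did not overlap between NFKO and control, so they cannot be told apart from genotype there. With Xist as a covariate the values were -0.05 in NFKO, -0.13 in AnkGKO and -0.34 in DKO. Its interaction was 0.07 with a 95% interval of -0.27 to 0.40. Among libraries with low Xist, Olig2 was at 81.5 CPM in control 3, the only such control, and at 64.5 to 75.2 in single knockouts. With high Xist it was at 81.7 and 81.0 in controls 1 and 2 and 68.6 and 74.9 in DKO 2 and 3.

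Olig1, its neighbor on chromosome 16, had its lowest group mean in DKO. It was at 317, 307 and 355 CPM in control, at 309.7, 340.3 and 334 in NFKO, at 268 and 339 in AnkGKO and at 225, 289 and 299.8 in DKO. The DKO libraries lay below all control and all NFKO libraries and overlapped AnkGKO, in which AnkGKO 1 was lower than DKO 2 and 3.

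In DKO, Olig1 stood at -0.27 relative to control on the log2 scale (standard error 0.12, edgeR adjusted p = 0.629) and -0.27 against NFKO (standard error 0.12, adjusted p = 0.271), and without DKO 1 it was -0.15 and -0.16. In NFKO against control it was 0.01 with a 95% interval of -0.25 to 0.26. For AnkGKO against control it was -0.11, and it moved to 0.05 without AnkGKO 1 and to -0.28 without AnkGKO 2. The difference between Olig1 and Olig2 in their response was not tested.

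Sox10 and Myrf did not separate the genotypes. Sox10 was at 169, 175 and 153 CPM in control, at 151, 150.0 and 167 in NFKO, at 159 and 179 in AnkGKO and at 144, 199 and 165 in DKO, so that the lowest and the highest library were both DKO. Its 95% interval for DKO against control was -0.20 to 0.26 on the log2 scale. Schwann cells also express Sox10, and the summed CPM of 9 Schwann cell genes was higher in NFKO, at 359 to 384, than in control, at 89.9 to 215, where Sox10 was at -0.09 (log2 fold change, standard error 0.11).

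Myrf was at 334, 305 and 336 CPM in control, at 329.7, 305 and 346 in NFKO, at 288 and 366 in AnkGKO and at 363, 345 and 331 in DKO. Its groups overlapped in every comparison, and AnkGKO held both the lowest and the highest library. The 95% interval for DKO against control was -0.10 to 0.28, and those for NFKO and AnkGKO were -0.18 to 0.20 and -0.21 to 0.22, so a change as large as 0.6 lay outside all 3.

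Of the precursor surface proteins, Pdgfra showed no difference beyond its spread. It was at 67.2, 83.8 and 70.8 CPM in control, at 73.3, 85.0 and 84.1 in NFKO, at 81.5 and 74.7 in AnkGKO and at 84.5, 69.5 and 68.8 in DKO, and its groups overlapped throughout. The log2 fold changes against control were 0.13 in NFKO, 0.08 in AnkGKO and 0.01 in DKO, the last with a 95% interval of -0.22 to 0.23. In DKO 1, where 6 other genes of the 10 were lowest, Pdgfra was second only to NFKO 2 among the 11 libraries.

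Cspg4 was highest in AnkGKO. It was at 32.3, 33.8 and 30.8 CPM in control, at 29.0, 31.8 and 34.4 in NFKO, at 34.5 and 40.5 in AnkGKO and at 27.3, 32.6 and 32.7 in DKO. Both AnkGKO libraries lay above the other 9, by a small margin for AnkGKO 1, and the other 3 groups overlapped each other. Relative to control, AnkGKO stood at 0.21 on the log2 scale (standard error 0.11, edgeR adjusted p = 0.948) and DKO at -0.28 relative to AnkGKO (standard error 0.11, adjusted p = 0.540), and without AnkGKO 2 these were 0.09 and -0.17. The summed CPM of 10 pericyte and mural cell genes had a mean of 338 in NFKO, 287 in AnkGKO, 255 in control and 216 in DKO. The NFKO mean was raised by NFKO 2, at 447, with NFKO 1 and 3 at 279 and 289. The 2 genes of that list called in the interaction, Rgs5 and Pdgfrb, had their highest group means in AnkGKO, at 58.3 and 47.0 CPM. The part of pericytes in the Cspg4 value was not tested.

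By sign alone, 4, 7 and 3 of the 10 genes had a positive log2 fold change in NFKO, AnkGKO and DKO against control (48.2%, 48.7% and 49.8% of all genes), and 3 of 10 had one in DKO against NFKO (50.1%) and against AnkGKO (50.7%). Genes whose groups did not overlap were counted in the same way. Against control, 0 genes were higher and 2 lower in NFKO (7.42% and 6.51% of all genes), 2 higher and 2 lower in AnkGKO (11.7% and 12.3%), and 0 higher and 3 lower in DKO (7.65% and 6.8%). Against NFKO, DKO had 0 higher and 2 lower (9.32% and 10% of all genes), and against AnkGKO 0 higher and 2 lower (12.4% and 11.3%).

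Within genotypes, Bmp4 and Gpr17 varied most, with an SD of log2 CPM around the genotype mean of 0.47 and 0.40 over the 11 libraries, and the other 8 genes ranged from 0.11 for Bcas1 to 0.17 for Olig1. DKO 1 held the lowest value of 6 genes, Cspg4, Olig1, Olig2, Sox10, Gpr17 and Enpp6, and the highest of none, while 16.8% of all genes were lowest there. Relative to the DKO mean its log2 deviation was -0.74 for Gpr17, -0.28 for Olig2, -0.26 for Olig1, -0.22 for Sox10 and Enpp6, and -0.17 for Cspg4. It was 0.19 for Pdgfra, 0.07 for Myrf and near 0 for Bmp4 and Bcas1.

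Other genes of the lineage were also counted by the library in which they were lowest. Among 20 genes of mature oligodendrocytes and central myelin, 8 were lowest in DKO 1, including Ugt8a, an enzyme of galactolipid synthesis, at 224 CPM against 454 to 641 elsewhere. Mbp, which encodes the myelin basic protein of the sheath, was not among them. In NFKO 2, where 13.4% of all genes were lowest, 6 of the 20 were. Of 19 other genes of committed and newly formed oligodendrocytes, 8 were lowest in DKO 1 and at most 3 in any other library. Of 20 other precursor genes, 5 were lowest in DKO 1 and 6 in DKO 2, where 10.4% of all genes were lowest.

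**Figure D4:**
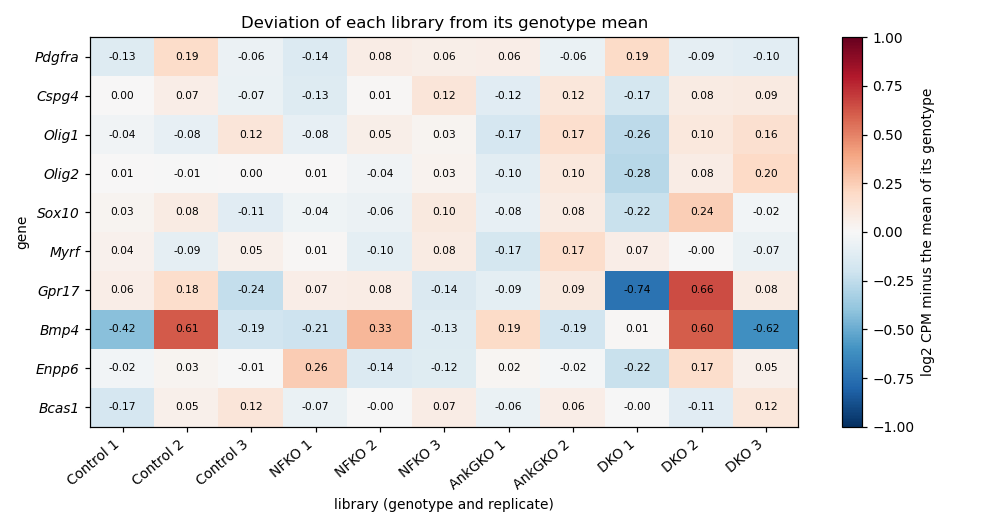
Log2 CPM of the 10 genes in each library minus the mean of its genotype, red above and blue below, with the value in each cell. DKO 1 is below its genotype mean for 6 genes by 0.17 to 0.74, and Bmp4 and Gpr17 hold the widest rows.

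For each gene, the genes whose deviations from the genotype means ran most alike over the 11 libraries were listed among 13900 others with a mean of at least 1 CPM. For Olig2 these were Imp4 (Pearson r = 0.98), Enpp2 (0.98) and Trf (0.97), the last the transferrin gene of oligodendrocytes, and without DKO 1 the r of Trf was 0.88. For Olig1 they were Srebf2 (0.98), Akt2 (0.96) and Rad51c (0.96), and for Gpr17 Rbm6 (0.98), Fam185a (0.98) and Gtf2i (0.98). For Bcas1 they were Oxsr1 (0.97), Eno4 (0.95) and Adhfe1 (0.94), and for Enpp6 Eif2s1 (0.93), Thumpd3 (0.92) and Rsad1 (0.92). For Bmp4 they were Cbr2 (0.96), 2310014H01Rik (0.96) and Ptgis (0.96), and for Pdgfra Rgag1 (0.96), Timp3 (0.95) and Irx2 (0.95). For Cspg4 they were Gm1078 (0.96), Wdr24 (0.96) and Myl6b (0.95), for Sox10 Creld1 (0.97), Hspb11 (0.96) and Tjap1 (0.96), and for Myrf Pdp2 (0.97), Tnfrsf23 (0.97) and Apbb2 (0.97). With 11 libraries that share depth and dissection, values of this size are a description of the libraries.

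Other genes of the lineage and of its signals were read from 9 lists with 121 tested genes beside the 10. By edgeR, 0 of the 121 were called in each mutant against control and in DKO against each single knockout, where 12, 10, 12, 22 and 24 had an unadjusted p under 0.05. Those are 9.92%, 8.26%, 9.92%, 18.2% and 19.8%, against 7.69%, 5.39%, 7.77%, 16.2% and 8.48% of all genes. DESeq2 with a local fit called 1, 1, 0, 5 and 0 in the same order, against 159, 102, 44, 418 and 99 of all 17557 genes. With a parametric fit it called 1, 1, 0, 4 and 0, against 135, 76, 32, 320 and 65. In the interaction, edgeR called 1 gene, Pdgfrb, with 20 at an unadjusted p under 0.05 (16.5%, against 10.3% of all genes). DESeq2 called 5 and 3 there with the local and parametric fits, against 318 and 229 of all genes. For any genotype difference edgeR called 0 of the 121, with 22 at an unadjusted p under 0.05 (18.2%, against 11.3% of all genes). DESeq2 called 16 and 9 of the 121, against 1137 and 698 of all genes.

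Of the other precursor genes, the most abundant were Gpr37l1, at 424 to 538 CPM, and the phosphatase gene Ptprz1, at 178 to 239. The smallest p for any difference belonged to the matrix gene Matn4 (adjusted p = 0.307 from edgeR) and to Sox6, a factor that holds precursors undifferentiated (adjusted p = 0.324). The median log2 fold change of the 20 genes was -0.05 in NFKO, 0.04 in AnkGKO and -0.13 in DKO against control, where 8, 14 and 4 of them were positive, while the median of all genes lay within 0.01 of 0.

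Of the other committed and newly formed oligodendrocyte genes, Sema5a, a semaphorin, was at 139, 156 and 146 CPM in DKO and at 171 to 199 in the other 8 libraries. On the log2 scale DKO stood at -0.31 for Sema5a relative to control (standard error 0.068, edgeR adjusted p = 0.427) and -0.31 against NFKO (standard error 0.068, adjusted p = 0.0644). Zfp488, a zinc finger factor of differentiating oligodendrocytes, was at 12.9 and 10.6 CPM in AnkGKO and higher, up to 24.6, in the other 9 libraries. The log2 fold change of Zfp488 in AnkGKO against control was -0.88 (standard error 0.18, adjusted p = 0.110 from edgeR), and DESeq2 called it with either fit. The deacetylase gene Sirt2, at 289 to 362 CPM, and the choline transporter gene Slc44a1, at 265 to 327, were the most abundant. The median of the 19 genes was -0.03, 0.06 and -0.08 in NFKO, AnkGKO and DKO against control.

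Of the mature genes, Mbp ranged from 12744 to 15123 CPM over the 11 libraries, and the 20 mature genes together summed to 31651 to 38504. Aspa, an aspartoacylase gene, and Apod, a lipocalin gene, had the smallest p for any difference (adjusted p = 0.267 and 0.300 from edgeR). The median log2 fold change of the 20 was 0.05, -0.01 and 0.00 in NFKO, AnkGKO and DKO against control.

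For the PDGF and BMP signals that act on precursors, the ligands were led by Pdgfa, the main ligand of the Pdgfra receptor, at 33.2 to 39.1 CPM, and by Pdgfd, at 17.1 to 32.4. Pdgfb and Bmp5 had the smallest p for any difference (adjusted p = 0.291 and 0.300 from edgeR). Of the receptors, Pdgfrb, the PDGF receptor of pericytes, was at 30.2 to 36.8 CPM in control, 41.0 to 48.7 in NFKO, 46.8 and 47.3 in AnkGKO and 34.7 to 37.6 in DKO. Its interaction was -0.73 (log2, standard error 0.13, adjusted p = 0.0282 from edgeR), with 0.37 in NFKO and 0.45 in AnkGKO but 0.09 in DKO against control. Among inhibitors Smad7 and Chrd were most abundant, at 44.0 to 57.6 and 10.6 to 17.2 CPM, and Nog, the BMP antagonist noggin, had the smallest p (adjusted p = 0.324 from edgeR). Of the Id and Hes genes, Id2 and Id4 were at 80.7 to 114 and 55.8 to 75.1 CPM, and Hes5 and Hes1 had the smallest p (adjusted p = 0.388 and 0.588 from edgeR).

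Among regulators of differentiation, Gpr37 and Thra were most abundant, at 259 to 339 and 234 to 280 CPM, and Sox9 and the deacetylase gene Hdac1 had the smallest p for any difference (adjusted p = 0.0899 and 0.259 from edgeR). Proliferation genes were low, with 12 genes that summed to 6.37 to 16.5 CPM. Mki67 was at 0.571 to 3.74 CPM, Ccna2 at 0.833 to 2.73, and Cdk1 at 0.630 to 1.24.

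Markers of other cell types differed between the same libraries. The summed CPM of 9 Schwann cell genes did not overlap between NFKO, at 359 to 384, and control, at 89.9 to 215, and was 266 and 91.3 in AnkGKO and 66.7 to 207 in DKO. The meningeal fibroblast sum was 199 to 539.5 CPM in control, 608 to 1720 in NFKO, 224 and 493 in AnkGKO and 144 to 459.7 in DKO. The sum of 10 pericyte and mural cell genes was 206 to 307 CPM in control, 279 to 447 in NFKO, 271 and 304 in AnkGKO and 209 to 221 in DKO. In these lists edgeR called only Slc13a3, a meningeal transporter gene, lower in DKO against NFKO and AnkGKO, and Rgs5, lower in DKO against AnkGKO, with Slc13a3, Rgs5 and Pdgfrb in the interaction and the first 2 of these for any genotype difference. Their part in the values of Pdgfra, Cspg4 and Sox10 was not tested beyond the covariates.

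The Purkinje cell genes summed to 1303 and 1392 CPM in control 1 and NFKO 1 and to 295 to 424 in the other 9 libraries, and the granule cell genes to 797 and 677 in those 2 and to 119 to 203 in the rest. With control 1 and NFKO 1 left out together, 0 of the 10 lineage genes were called by edgeR in any comparison, and the log2 fold change of Bcas1 in NFKO was -0.42. Astrocyte genes summed to 8501 to 8958 CPM in control and 10614 and 11223 in AnkGKO, with 7901 to 9164 in NFKO and 9499 to 9863 in DKO. Microglia genes summed to 452 to 554 CPM in control and 493 to 645 in the mutants, and choroid plexus genes, mostly Enpp2, which oligodendrocytes also express, to 608 to 852 in all libraries.

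**Figure D5:**
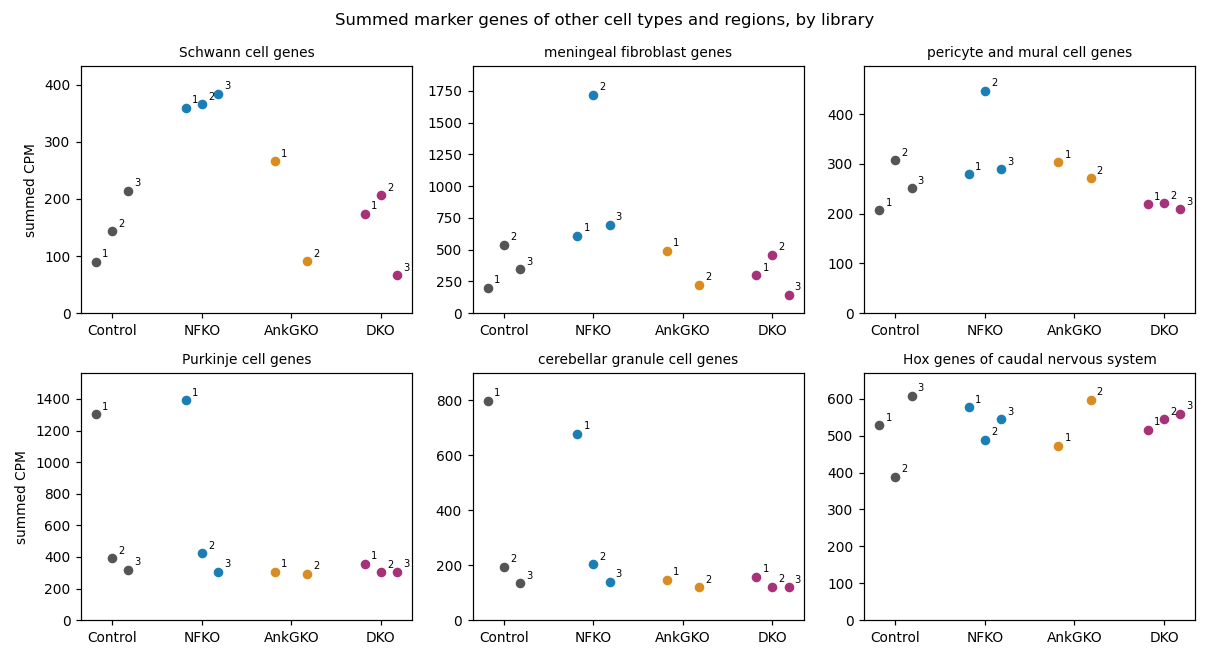
Summed CPM of the marker genes of Schwann cells, meningeal fibroblasts, pericytes, Purkinje cells, granule cells and the caudal nervous system (Hox genes), each point 1 library with its replicate number. The Schwann cell sum of NFKO lies above the controls, and control 1 and NFKO 1 alone hold high Purkinje and granule cell sums.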

How the data were processed

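RNA-seq was made from 11 libraries of 4 genotypes, grouped by their sample labels. The submitters' processing notes name FastQC 0.12.1, Trimmomatic 0.39, STAR 2.7.11a and GRCm39. The authors deposited raw counts of reads per gene and, as normalized signal, those counts after division by a size factor for each library, equal to DESeq2's. Gene symbols and the 5 summary lines of the table are not those of STAR's gene counts, so the counter and annotation behind the table are uncertain, and the summary lines were left out. The tests used the raw counts of the 17557 genes with at least 10 counts in all.

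edgeR 4.0.16 in R 4.3.3 fitted robust quasi-likelihood models with TMM scaling. Standard errors and intervals were computed from the F statistics, and log2 values used a prior count of 2. At these depths 3 counts make 0.0546 to 0.0780 CPM, which covers counting error only. The steps were tested on simulated data. No pair of replicates agreed within sampling noise. Replicate numbers were checked by correlating deviations from group means over genes. Same-numbered NFKO and control libraries gave r of 0.36, 0.31 and 0.17, and DKO and NFKO libraries 0.05, 0.35 and 0.18. All pairs of genotypes other than NFKO and control gave -0.28 to 0.35. Libraries with different numbers were not correlated, so the check cannot show pairing. The main test took no libraries as paired, and the replicate block was run as an alternative.

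Alternatives were DESeq2 1.42.0 with a local or parametric fit, DESeq2's size factors, other filters, only the groups compared, the replicate block, other fold thresholds, covariates for meningeal fibroblast, granule cell and Schwann cell genes and Xist, and leaving out libraries. The parametric fit, the Schwann cell covariate and the joint removal of control 1 and NFKO 1 were added after seeing the data. The 10 genes, the gene lists and the rules were chosen with earlier results of these data known. All 10 genes are named. Of the lineage and pathway lists, the text names genes called, or otherwise the 2 most abundant and the 2 with the smallest p for any genotype difference, and of lists of other cells the genes called and the summed CPM, apart from items that are not reported here. Sequences are from RefSeq promoters of GRCm38.p6. Other assays of the study were not analysed here.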

Additional observations from a re-analysis of the deposited data

How the results depend on the processing

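The count of called genes among the 10 stayed at 0 in the 5 pairwise comparisons and the interaction under every alternative run, leaving out each library in turn included (0 to 0). For any genotype difference it was 2 with DESeq2 and a local dispersion fit (Bcas1 and Enpp6) and 1 with a parametric fit (Bcas1), and 0 under the others. The 15 log2 fold changes with an unadjusted p under 0.05 or with groups that did not overlap kept their direction in 341 of 343 alternative values. The exceptions were Olig2 in NFKO against control with the Schwann cell covariate, at 0.015, and Bmp4 in DKO against NFKO with the meningeal fibroblast covariate, at 0.0091, and the cause was not tested. Among the 45 other fold changes, 89 of 1027 alternative values changed sign. Leaving out 1 library moved Gpr17 in DKO against control to -0.85 at the lowest and -0.19 at the highest, and Olig2 there to -0.41 and -0.18.

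Under the replicate block none of the 10 was called (0 in each comparison), as without it, and the adjusted p of Bcas1 in NFKO was 0.0774. Over all genes edgeR called 64 (NFKO), 29 (AnkGKO) and 4 (DKO) against control, 108 (DKO and NFKO), 30 (DKO and AnkGKO), 93 (interaction) and 127 (any difference). In that order DESeq2 called 159, 102, 44, 418, 99, 318 and 1137 with a local and 135, 76, 32, 320, 65, 229 and 698 with a parametric fit. edgeR called 55, 21, 4, 85, 30, 75 and 104 with the replicate block, 26, 27, 4, 32, 25, 48 and 61 with the Schwann cell covariate, 38, 39, 7, 38, 36, 54 and 88 with the meningeal covariate, 31, 15, 5, 42, 14, 19 and 77 with Xist, and 29, 20, 4, 59, 20, 41 and 62 without control 1 and NFKO 1. Leaving out 1 library gave 40 to 71, 18 to 35, 4 to 8, 68 to 162, 12 to 40, 52 to 102 and 82 to 169, and fitting only the groups compared gave 11 for DKO and AnkGKO. Without a fold threshold 156 genes separated DKO and NFKO, and with a threshold of 1 the count was 69. With 2 to 3 libraries a group, the 95% intervals of Gpr17 and Bmp4 spanned more than 1 log2 unit.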
